A study of Mus musculus with 2 samples.

Results

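The smooth muscle contractile genes described here are Acta2, Myh11, Tagln, Cnn1, Myocd, Lmod1, Actg2, Synpo2, Des and Srf. They were chosen by name for their role in smooth muscle, with earlier results of these data known. They make up 10 of the 21938 protein-coding genes of the GENCODE annotation on chromosomes 1 to 19, X and Y. DNase-seq, which counts where the enzyme DNase I cuts chromatin, was run on lung tissue of mouse strain B6NCrl at postnatal 0 days. The linked extraction protocol is, by its name, one for cultured cells, although the samples are labelled as tissue. The series has 1 group, lung at that age, with 2 biological replicates, whose numbers come from the labels, and no treatment, mutant or second tissue. Both carry the same donor entry but separate biosample entries, sex is given as not collected, and nothing states whether each is 1 animal or a pool. No difference between conditions can therefore be read, and every value below is a level in the lung map with its spread over these 2 replicates.

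Smooth muscle of the lung wraps airways and blood vessels, and near birth related myofibroblasts also lie in the tips of the future alveolar walls. Its contractile genes share a control element, the CArG box, in which a run of A and T letters stands between CC and GG. SRF binds this element as a dimer, and its cofactor myocardin, the product of Myocd, drives the contractile programme. The element is named CArG-like here where a single letter of the A and T run is G or C. In smooth muscle genes of mice such imperfect boxes are known to work as well.

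The authors listed narrow peaks of 150 bp, each with a score whose meaning the sources used here do not give. It ran from 2 to 150 in replicate 1 and from 1 to 148 in replicate 2, with medians of 50 and 43. Peaks of both replicates that overlapped by at least 1 bp were merged into a site, called shared, and a shared site within 500 bp of any transcription start site (TSS) of a gene is called a promoter site of that gene. Distances are along the gene from the 5′ end of its GENCODE model, negative upstream, and coordinates are 1-based in mm10. In whole lung, a weak site in all cells and a strong site in few cells cannot be told apart, so a low score says nothing of the state of the chromatin inside smooth muscle cells.

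As a check of the tissue label, 5 of 5 lung epithelium markers had a shared promoter site (Sftpb, Sftpc, Nkx2-1, Hopx and Foxj1). So did 3 of 3 markers each of endothelium, mesenchyme and pericytes, against 68.5% of all protein-coding genes. Counts this small are a weak check, and the lists were chosen with earlier results of these data known, so they give no independent support. Of the skeletal muscle markers 1 of 5 had one, Mylpf, beside a TSS of another gene, and Ckm, Myod1, Myog and Tnnt3 had no promoter peak in either replicate. Of the cardiac markers 2 of 5 had one, Tnnt2 and Tnni3. Nppa had no peak, and Myl7 (43) and Nkx2-5 (35) had a replicate 1 peak only. Several of the 10 genes are also used by heart muscle, and what cardiac cells add to the values below was not tested. Of a liver and a pancreas marker, Alb had a weak shared promoter site (36 in replicate 1 and 40 in replicate 2) and Cel had no promoter peak.

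All 10 smooth muscle genes had a shared promoter site, as did 15032 of all 21938 protein-coding genes (68.5%). Promoters rich in CpG dinucleotides are open in most tissues, so the share depends on that number. Of the 10 genes, 2 (Cnn1 and Actg2) are in the lowest 3 deciles of CpG number, where 24.2% of all genes had a shared promoter site. Another 6 are in the middle 4 deciles, where the share was 80.7%, and 2 (Des and Srf) are in the highest 3 deciles, where it was 96.7%. Limited to peaks above the median score of each list, 8 of the 10 genes had one, all but Cnn1 and Actg2, against 61.9% of all protein-coding genes.

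All genes but Srf had a promoter score below the median of open genes. The median of the strongest promoter score over the 10 genes was 79.5 in replicate 1, against 121 for open genes, and 52.5 in replicate 2, against 101. Open genes are the 15032 genes with a shared promoter site. In replicate 1, 9 of the 10 genes lay below that median and 6 lay below the first quartile of 96. In replicate 2, 9 lay below the median and 7 below the first quartile of 74. The smooth muscle genes were also lower within each CpG class. In the lowest 3 deciles their medians were 55.5 and 34.5, against 85 and 62 for open genes in replicates 1 and 2. In the middle 4 deciles they were 85.5 and 52.5, against 118 and 97, and in the highest 3 deciles 114 and 96, against 128 and 110. The last class mixes a strong and a weak gene. Low scores were not particular to the smooth muscle genes. Endothelium markers had medians of 86 and 54 in replicates 1 and 2, and pericyte markers 94 and 74. Lung epithelium markers had 105 and 90 and mesenchyme markers 118 and 96, also below the open gene medians. The 2 cardiac markers with a site had 73.5 and 50, and the 1 skeletal muscle marker with a site, Mylpf, had 144 and 140. Each of these lists holds 3 or 5 genes.

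**Figure D1:**
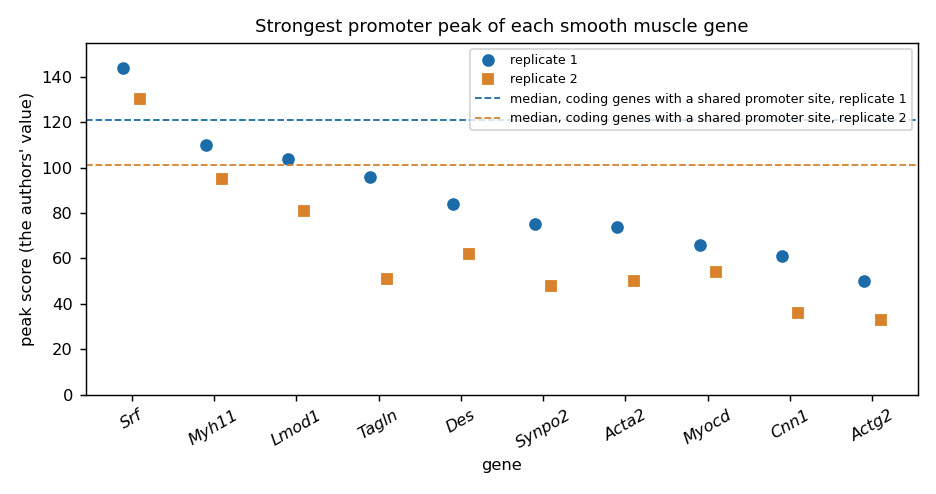
Score of the strongest shared promoter peak of each gene (vertical axis, the authors' score with no unit) in replicate 1 (circles) and replicate 2 (squares), with dashed lines at the medians of all open coding genes (121 and 101). Srf stands above both lines, at 144 and 130, and the other genes stand below their line in both replicates.

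Srf encodes the serum response factor, which is expressed in most cells. Its gene (ENSMUSG00000015605, chr17:46548329-46556175, minus strand) had the strongest promoter of the group, with scores of 144 in replicate 1 and 130 in replicate 2. This put it at percentiles 96.2 and 94.7 of the open genes. The site was centred at −145, and a second, weaker site at +575 scored 70 and 43. The authors' broader hotspot over this promoter was 2478 bp wide in replicate 1 and 1793 bp in replicate 2, the widest among the 10 genes in both. A pair of CArG boxes lies from −69 to −40, between the peak and the 5′ end. They are shown because Srf is known to be controlled by its own product. The capitals mark the boxes (RefSeq GRCm38.p6, chr17:46556215-46556244, minus strand, inside a RefSeq exon that begins further upstream).
Srf pair: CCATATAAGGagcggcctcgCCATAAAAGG
Both boxes lay in the hotspots of both replicates. Neither lay inside a peak of replicate 1, and the upstream one was covered in part by a peak of replicate 2.

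Strong shared sites lay in Srf introns at +3215, with scores of 141 in replicate 1 and 120 in replicate 2, and at +2895, with 135 and 118. Their centres are 929 and 609 bp from the nearest annotated TSS of any gene. They are therefore left out of the distal sites below, which lie more than 1000 bp from any TSS. The first holds no CArG box. The second begins with another CArG box, at +2813, which was inside the replicate 1 peak and not inside the replicate 2 peak (chr17:46553196-46553365, minus strand).
Srf intron site: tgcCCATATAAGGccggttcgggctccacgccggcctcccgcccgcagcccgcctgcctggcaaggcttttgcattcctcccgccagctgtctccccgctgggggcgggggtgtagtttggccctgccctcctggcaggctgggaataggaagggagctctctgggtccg

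Myocd encodes myocardin, the cofactor confined mostly to cardiac and smooth muscle. Its gene (ENSMUSG00000020542, chr11:65176561-65269989, minus strand) had a promoter site at −71 with scores of 66 in replicate 1 and 54 in replicate 2. These are at percentiles 10.7 and 14.4 of the open genes, far below Srf in both replicates. Of the other peaks near its TSSs, those at +139 (28) and +64559 (27) were found in replicate 1 only and that at −441 (34) in replicate 2 only. No CArG box was found within 3 kb of its 5′ end.

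Acta2 encodes smooth muscle α-actin, the main actin of vascular and airway smooth muscle and of myofibroblasts. Its gene (ENSMUSG00000035783, chr19:34241090-34255590, minus strand) had 1 shared promoter site, scored 74 in replicate 1 and 50 in replicate 2. These values lay at percentiles 13.8 and 12.5. The site was centred at +200, inside the first exon of the model. That site holds a pair of CArG-like boxes in the peaks of both replicates, at +133 near its upstream edge and at +183 near its centre. The CArG elements known from the Acta2 promoter carry a G or C in the run, and whether these boxes are those elements was not tested. Each is shown with 10 bases on either side, with the box in capitals (chr19:34255438-34255467 and chr19:34255388-34255417, minus strand).
Acta2 first: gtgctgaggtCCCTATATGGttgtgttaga
Acta2 second: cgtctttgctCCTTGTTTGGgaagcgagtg
A further pair of peaks, at +980 (44) and +1300 (61), was found in replicate 1 only, beside a second annotated TSS. The peak at +1300 holds a CArG box at +1293, and another box at +2388 lay outside the hotspots of both replicates.

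Actg2 encodes smooth muscle γ-actin, most abundant in visceral smooth muscle such as that of gut and bladder. Its gene (ENSMUSG00000059430, chr6:83512905-83536265, minus strand) had the weakest promoter of the 10, with scores of 50 in replicate 1 and 33 in replicate 2, at percentiles 5.39 and 4.33. The shared site was 310 bp wide, since a single replicate 2 peak joined it to adjoining replicate 1 peaks. It was centred at −165. A pair of CArG boxes, at −68 and −31, lay inside a replicate 1 peak, outside the replicate 2 peak and inside the hotspots of both. The 150 bases before the 5′ end are shown with those boxes in capitals (chr6:83536266-83536415, minus strand).
Actg2 upstream: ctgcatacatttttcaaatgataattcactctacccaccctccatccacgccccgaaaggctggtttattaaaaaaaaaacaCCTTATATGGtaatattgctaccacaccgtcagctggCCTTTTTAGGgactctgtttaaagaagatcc

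Myh11 encodes the smooth muscle myosin heavy chain, the motor of contraction and the most specific of the usual smooth muscle markers. Its gene (ENSMUSG00000018830, chr16:14194535-14291372, minus strand) ranked after Srf, with scores of 110 in replicate 1 and 95 in replicate 2 at a site centred at −58. These were at percentiles 35.7 and 42.2, in the lower part of the open genes but above those of the other 8 genes. The hotspot there was 640 bp wide in replicate 1 and 482 bp in replicate 2. Its 1 CArG box near the 5′ end, at −958, lay outside the hotspots of both replicates.

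Tagln encodes transgelin (SM22α), a small actin-bundling protein that appears early in smooth muscle. Its gene (ENSMUSG00000032085, chr9:45929619-45936058, minus strand) had a promoter site at +38 with scores of 96 in replicate 1 and 51 in replicate 2. The replicates differed most at this gene, with a log2 ratio of replicate 1 over replicate 2 of 0.91. A stronger shared site lay further upstream, at −1052, with scores of 111 and 93, and counts as distal here. With a promoter limit of 1000 bp it becomes the strongest promoter site of Tagln. Of its CArG boxes near the 5′ end, the one at +11 was inside the peaks of both replicates. That at −112 was in a hotspot of replicate 1 and not of replicate 2. The mouse Tagln promoter is known for a pair of CArG boxes, and both matches are shown in capitals (chr9:45936151-45936180 and chr9:45936028-45936057, minus strand).
Tagln upstream: agggtcctgcCCATAAAAGGtttttcccgg
Tagln start: gtgtctttccCCAAATATGGagcctgtgtg

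Cnn1 encodes calponin, which binds actin and slows myosin cycling. Its gene (ENSMUSG00000001349, chr9:22099216-22109630, plus strand) had a site at −26 with scores of 61 in replicate 1 and 36 in replicate 2, at percentiles 9.03 and 5.56. Its hotspot was the narrowest of the 10 in both replicates, 348 bp in replicate 1 and 176 bp in replicate 2. The authors' −log10 q-value for it was 6 in replicate 1 and 2.29 in replicate 2, where their files stop at 100. Its CArG box near the 5′ end, at +910 inside the gene, lay outside the hotspots of both replicates.

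Lmod1 encodes leiomodin, which nucleates actin filaments in smooth muscle. Its gene (ENSMUSG00000048096, chr1:135324807-135368065, plus strand) had the third strongest promoter of the group in both replicates, at −127, with scores of 104 in replicate 1 and 81 in replicate 2. Synpo2 encodes synaptopodin-2, an actin-binding protein of Z-discs and dense bodies. Its gene (ENSMUSG00000050315, chr3:123076519-123236149, minus strand) had a site at −41 with scores of 75 in replicate 1 and 48 in replicate 2. Des encodes desmin, the intermediate filament of muscle cells of all kinds. Its gene (ENSMUSG00000026208, chr1:75360329-75368579, plus strand) had sites at −39 (83 and 62 in replicates 1 and 2) and at +1621 (84 and 40), the second beside another annotated TSS. The sites were of similar strength in replicate 1, and the second was the weaker in replicate 2. The Lmod1, Synpo2 and Des values were below the open gene median in both replicates, and Lmod1 and Des had no CArG box within 3 kb of their 5′ ends.

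The 10 genes held 12 shared promoter sites in all, of which 11 were centred within 200 bp of an annotated TSS of the gene and 9 were centred upstream of it. None of the 10 genes owed its promoter site to a TSS of another gene within 500 bp. Hotspots covered the promoters of all 10 genes in both replicates. The widest of each gene had a median of 520 bp in replicate 1, against 1097 bp for all protein-coding genes with a promoter hotspot. In replicate 2 the median was 372 bp, against 851 bp, so the smooth muscle genes had the narrower hotspots in both. The highest possible −log10 q-value, 100, was reached by this widest hotspot in 9 of the 10 in replicate 1, against 88.3% of those protein-coding genes, and in 5 of the 10 in replicate 2, against 84.7%. In replicate 2 it was low at Cnn1 (2.29), Actg2 (2.75), Acta2 (3.38), Des (4) and Tagln (4.47), where the median of all hotspots was 4.15.

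Replicate 1 scored higher than replicate 2 at all 10 promoters, as it did at 14870 of the 15032 open genes. The median log2 ratio of replicate 1 over replicate 2 was 0.49 over the 10 genes, against 0.24 over all open genes (quartiles 0.16 and 0.37). The ratio was above the third quartile in 6 of the 10, and Cnn1 (0.76) and Tagln (0.91) passed the 95th percentile of 0.69. The ratio is larger at weak promoters in general. Among the 4655 open genes with a replicate 1 score of 50 to 110, the range of the 9 genes other than Srf, its median was 0.40. Those 9 genes had a median of 0.57. Scores were not matched within the range, so a remaining part of promoter strength was not tested. The excess of the median of the 10 genes over that of all open genes was 0.25. It was 0.15 with a promoter limit of 1000 bp. The score scale may differ between the lists, so only the setting against other genes can be read. The instruments differ as well in what the labels list, with 2 models for replicate 1 and none for replicate 2, and their part was not tested.

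CArG boxes were searched on both strands. Up to 500 bp from the 5′ end, one was present in 3 of the 10 genes (Tagln, Actg2 and Srf), against 4.31% of all protein-coding genes. Inside a shared promoter site, 2 of the 10 had one (Tagln and Actg2), against 1.42% of open genes. The Actg2 boxes were in the replicate 1 peak only, so that with replicate 2 alone, or with an overlap of at least 75 bp, 1 gene was left. With CArG-like boxes included, Acta2 joined them and the count was 3 of 10, against 9.03% of open genes. Widening the search to 3 kb on either side of the 5′ ends gave 12 CArG boxes in 7 of the 10 genes, against 27.2% of all protein-coding genes with at least 1. Of the 12 boxes, 1 was inside the peaks of both replicates, 4 were inside a peak of replicate 1 only, 6 were in hotspots of both replicates, 2 in hotspots of replicate 1 only and 4 outside the hotspots of both. A match is a run of letters and does not show that SRF was bound.

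**Figure D2:**
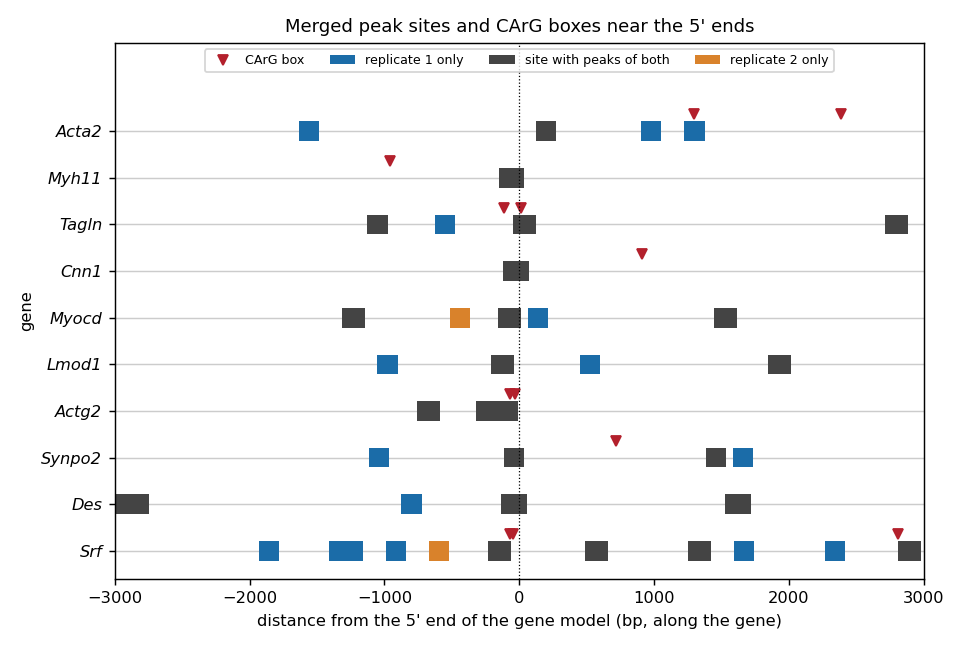
Merged peak sites (bars, to scale) and CArG boxes (triangles) within 3 kb of each 5′ end, in bp along the gene. Dark bars hold peaks of both replicates, blue bars replicate 1 only and orange bars replicate 2 only. Shared sites lie at or next to the 5′ end of every gene, and the boxes of Myh11, Cnn1 and Synpo2 lie away from all bars. Where a box lies over the wide Actg2 bar it was inside the replicate 1 peak only.

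Of the other motifs searched in the 12 promoter sites, the MCAT motif GGAATG was in 1, RBPJ TGGGAA in 1, SMAD CAGACA in 1, the E-box CANNTG in 4, CCAAT in 4 and TATAAA in 1. In the 28046 shared promoter sites of protein-coding genes these were held by 8.02%, 14.1%, 9.87%, 47.4%, 22.8% and 3.21% of sites in the same order. The AP-1 motif TGANTCA and the MEF2 motif were in 0 of the 12, against 4.66% and 0.264%. Each of these counts rests on 4 sites or fewer.

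Beyond the promoters, the regions within 50 kb of the 10 genes held 331 sites. Of these 191 were shared, 118 were in replicate 1 only and 22 in replicate 2 only, a shared portion of 57.7% against 55.5% over the genome. With replicate 1 alone the regions held 310 sites and with replicate 2 alone 213. Among the shared sites, 113 were distal, more than 1000 bp from any TSS, of which 36 lay in introns of the gene, 39 upstream of it, 33 downstream and 5 in noncoding parts of exons. With replicate 1 alone there were 203 distal sites and with replicate 2 alone 122. A gene had a median of 10 shared distal sites (mean 11.3), against 8 (mean 9.35) over all protein-coding genes. Per 100 kb of region the medians were 7.78 and 5.96. At least 1 shared intronic site was found in 7 of the 10 genes, against 53.4% of all protein-coding genes, and the exceptions were Cnn1, Actg2 and Des. All protein-coding genes here include genes without a shared promoter site, which all 10 genes have, and what this adds was not tested.

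The number of distal sites varied with the gene. Synpo2, the longest of the 10 at 159631 bp, had 25, of which 15 lay in its introns. Myh11 and Acta2 had 12 each, Myocd and Actg2 11 each, Tagln, Cnn1 and Lmod1 9 each, Srf 8 and Des 7. Only part of these sites lie nearest to the gene in question. Counting only sites whose nearest protein-coding TSS is that of the gene left 55 of the 113. Synpo2 then had 18, Myh11 and Myocd had 9 each, and Srf had 0.

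**Figure D3:**
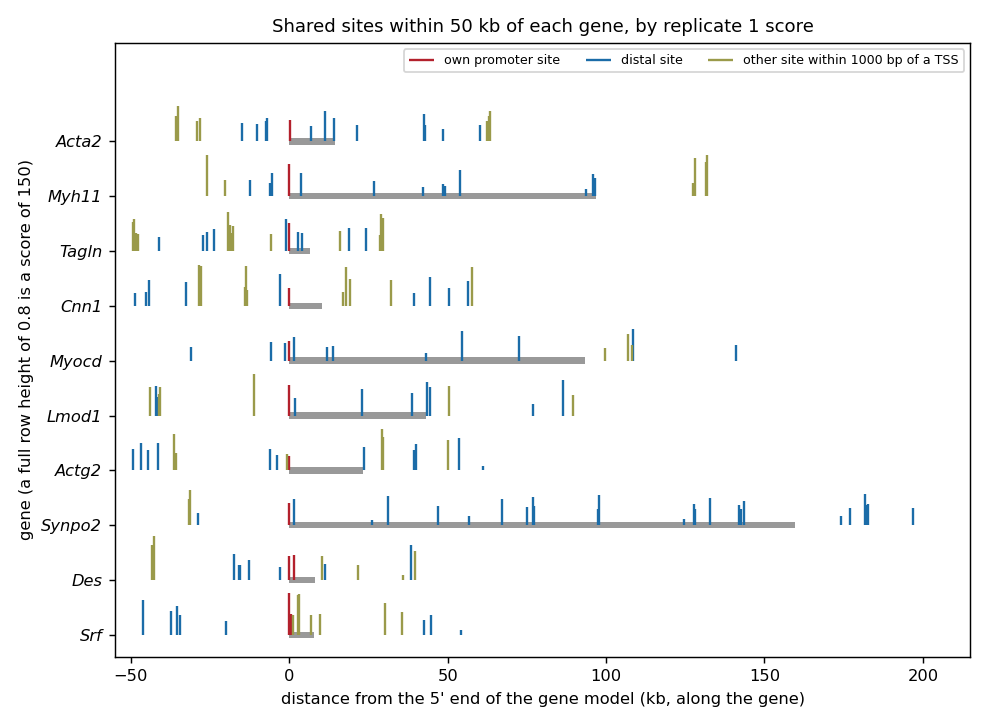
Shared sites within 50 kb of each gene, as distance in kb from its 5′ end along the gene, with line height proportional to the replicate 1 score. Grey bars are the gene bodies, red lines own promoter sites, blue lines distal sites and olive lines other sites near a TSS. The Synpo2 gene body carries the most distal sites, and the tallest lines around most genes are not the red ones.

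A distal site often scored higher than the promoter itself. In 8 of the 10 genes, all but Myh11 and Srf, a distal site within 50 kb was above the strongest promoter site in both replicates, against 28.1% of open genes. Limited to distal sites nearest to the gene's own TSS it was 7 of 10, all but Myh11, Lmod1 and Srf, against 17.4%. Weak promoters are more often exceeded. Among open genes with a replicate 1 promoter score of 50 to 110 the share was 39.6%, and in the 9 smooth muscle genes of that range it was 7 of 9. Genes were not matched by score within that range, and what is left of differences in promoter strength was not tested. Tagln enters these counts through its site at −1052, just past the 1000 bp that define a distal site. With a minimum of 2500 bp, an alternative chosen after seeing the data, Tagln left both counts. They were then 7 of 10, against 24.8% of open genes, and 6 of 10 by nearest TSS, against 14.9%.

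**Figure D4:**
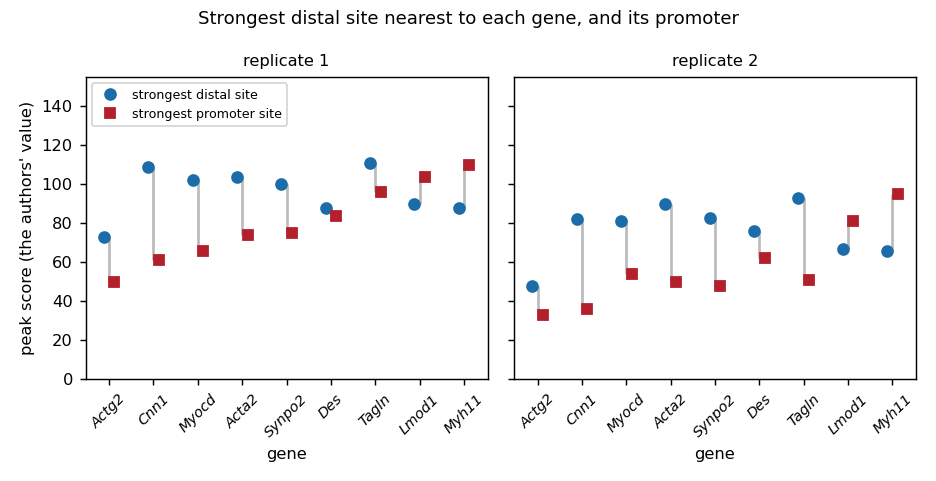
Score of the strongest shared distal site nearest to each gene (circles) and of its strongest promoter site (squares), for the 9 genes with such a distal site, in each replicate. Circles stand above squares in both panels for 7 genes and below them for Lmod1 and Myh11.

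The strongest of the distal sites nearest to each gene, by the sum of the scores of both replicates, lay at different places. For Tagln it was the site at −1052, scored 111 in replicate 1 and 93 in replicate 2. For Cnn1 it was at −3026, with 109 and 82, above a promoter of 61 and 36. Both lie upstream of short genes, Tagln of 6440 bp and Cnn1 of 10415 bp, with 2 and 0 shared intronic sites. For Acta2 it was an intronic site at +11340 with 104 and 90, for Myocd an intronic site at +54519 with 102 and 81, and for Synpo2 an intronic site at +31329 with 100 and 83. For Myh11 it was an intronic site at +53862 with 88 and 66, below the promoter in both replicates. The remaining genes had 90 and 67 at +23103 (Lmod1), 88 and 76 at −17269 (Des) and 73 and 48 at −5975 (Actg2).

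Stronger distal sites in the same regions, ranked by mean percentile over both replicates, were nearer to other genes. Those were 120 and 104 at +86363 for Lmod1, 119 and 104 at +38571 for Des, 109 and 89 at +108449 for Myocd, 109 and 81 at +53685 for Actg2 and 120 and 78 at −46175 for Srf. The strongest promoter of a neighbouring gene scored from 92 in replicate 1 and 62 in replicate 2 (Arhgap44, near Myocd) to 150 and 141 (Dnpep, near Des). For Myocd that neighbour was below the strongest distal site of the region in both replicates, and for Srf (Cul9, 108 and 86) in replicate 1 only.

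A CArG box was found in 5 of the 113 distal sites (4.42%), in the regions of 4 genes, against 1.04% of the 120866 shared distal sites of the genome. Those 5 sites are shown in full, along the strand of the gene, because they are the distal sites whose letters match the element that these genes are known for. Capitals mark CArG and CArG-like boxes. The Acta2 site at −10250 (chr19:34265736-34265945, minus strand) scored 59 in replicate 1 and 60 in replicate 2. The Myh11 site at −5348 (chr16:14296636-14296805, minus strand) scored 79 and 53 and holds a CArG box and a CArG-like box. The Lmod1 site at +23103 (chr1:135347836-135347985, plus strand) is its strongest nearest distal site. The first Synpo2 site, at +31329 (chr3:123204736-123204905, minus strand), is likewise its strongest, and the second, at +47109 (chr3:123188956-123189125, minus strand), scored 65 and 40.
Acta2 distal: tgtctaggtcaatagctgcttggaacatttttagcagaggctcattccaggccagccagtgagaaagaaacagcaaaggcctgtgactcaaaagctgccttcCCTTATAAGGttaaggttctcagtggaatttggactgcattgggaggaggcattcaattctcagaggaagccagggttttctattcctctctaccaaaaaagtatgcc
Myh11 distal: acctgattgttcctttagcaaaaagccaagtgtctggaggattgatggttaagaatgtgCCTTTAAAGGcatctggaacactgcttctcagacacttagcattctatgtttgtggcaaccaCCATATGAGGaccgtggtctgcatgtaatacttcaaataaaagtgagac
Lmod1 distal: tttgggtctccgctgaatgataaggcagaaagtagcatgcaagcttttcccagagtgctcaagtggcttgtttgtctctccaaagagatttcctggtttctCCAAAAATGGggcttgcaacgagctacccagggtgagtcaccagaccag
Synpo2 distal first: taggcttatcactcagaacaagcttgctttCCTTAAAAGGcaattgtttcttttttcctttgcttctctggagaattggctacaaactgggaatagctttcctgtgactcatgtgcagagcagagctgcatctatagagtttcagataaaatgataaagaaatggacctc
Synpo2 distal second: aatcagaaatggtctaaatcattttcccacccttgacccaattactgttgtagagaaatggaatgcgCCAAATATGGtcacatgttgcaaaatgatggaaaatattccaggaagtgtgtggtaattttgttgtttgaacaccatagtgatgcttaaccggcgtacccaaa
In all 5 of these sites the CArG box was inside the peaks of both replicates. The boxes near the 5′ ends were inside the peaks of both replicates in 1 of 12 cases, but the distal ones were looked for inside shared sites, so the counts are not comparable.

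Other motifs in the 113 distal sites stood closer to the background. The AP-1 motif TGANTCA was in 18.6% of them, against 11.5% of all shared distal sites, and the RBPJ motif TGGGAA, the element of Notch signalling, in 25.7%, against 18.1%. SMAD CAGACA was in 18.6% against 16.3%, the MCAT motif GGAATG of TEAD factors in 15.9% against 14.6%, CCAAT in 21.2% against 19.7%, TATAAA in 7.96% against 8.43%, and the E-box CANNTG in 63.7% against 66.2%. CArG-like boxes were in 6.19% against 5.07% and the MEF2 motif in 0.885% against 0.755%. These shares have no test, since sites of the same region are not independent.

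Related genes (paralogues) of the 10 genes, among them striated muscle, nonmuscle and ubiquitous forms, were set beside them. Of 26 such paralogues, 20 (76.9%) had a shared promoter site, against 68.5% of all protein-coding genes. Those without one included 5 striated muscle genes of actin and myosin. Acta1, the skeletal muscle actin gene, had only a replicate 1 peak of 33. Actc1, the cardiac actin gene, had only a replicate 2 peak of 27, and Myh6, a cardiac myosin gene, only a replicate 2 peak of 21. The developmental and fast skeletal myosin genes Myh3 and Myh1, and Synpo2l, had none. Other striated muscle paralogues did have a shared site, namely Myh7 (106 in replicate 1 and 75 in replicate 2), Lmod2 (58 and 33) and Lmod3 (57 and 35), named after their values were seen. The strongest were the nonmuscle myosin gene Myh10 (144 in replicate 1 and 132 in replicate 2), the SRF cofactor gene Mrtfa (139 and 136) and the nonmuscle myosin gene Myh9 (143 and 126). Mrtfa was therefore far above Myocd, at 66 and 54, and Actb, the ubiquitous actin gene, at 135 and 121 was far above Acta2 and Actg2. These score differences exceed those between replicates of each gene. CpG numbers near the 5′ end differed as well, with 87 for Mrtfa and 48 for Myocd. They were 69 for Actb, 15 for Acta2 and 12 for Actg2, and their part was not tested. The paralogues with a shared site had median scores of 122 and 98.

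A list of 36 other genes of contraction and its control showed that low promoter scores were not shared by all genes of the pathway. Of these, 35 (97.2%) had a shared promoter site, against 68.5% of all protein-coding genes. The list too was chosen with earlier results of these data known. Their median score was 119 in replicate 1, against 121 for open genes, and 97 in replicate 2, against 101. The strongest were Actn1 (142 and 128), Tpm1 (140 and 115) and Vcl (136 and 119), which encode α-actinin, tropomyosin and vinculin and are expressed well beyond smooth muscle. Hand2, a transcription factor gene of heart and limb, had no shared site but a replicate 1 peak of 36. The weakest shared promoter of this list in both replicates was that of Kcnma1 (43 and 34). Kcnmb1, the smooth muscle subunit of the BK potassium channel, had scores of 74 and 41, and Myl9, a myosin light chain gene, 98 and 77. These genes are named after their values were seen. CpG numbers near the 5′ end vary in this list as well, and their part was not tested.

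**Figure D5:**
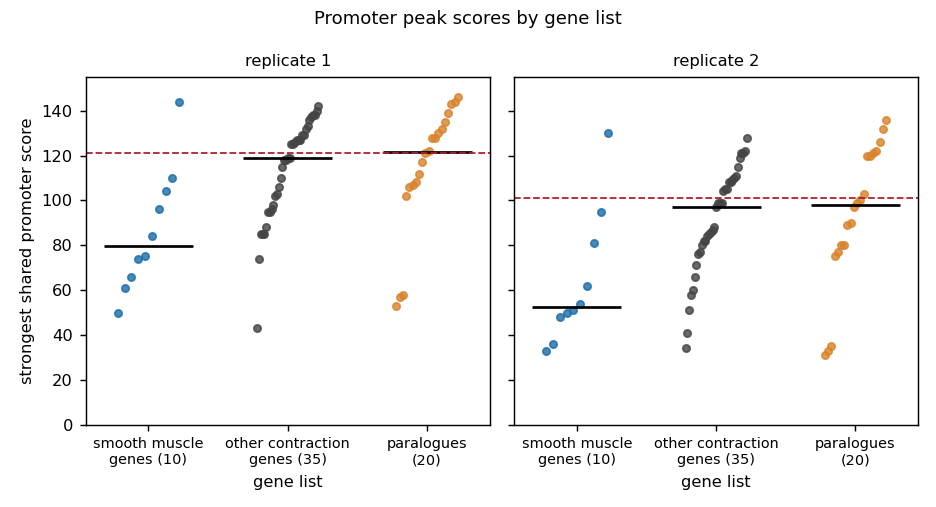
Strongest shared promoter score of each gene in the smooth muscle list (10), the other contraction genes (35) and the paralogues (20), 1 point per gene with a shared promoter site, in each replicate. Black bars are list medians and the red dashed line is the median of all open coding genes. The smooth muscle median lies at 79.5 and 52.5, below the line, and those of the other lists lie near it.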

How the data were processed

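DNase-seq peaks and hotspots of 2 libraries were used as the authors deposited them, called per library on mm10 per the file headers. The aligner, the caller and the depth are not given in the sources used here, so no interval for counting error could be given. The peak score is the authors' value per peak, a whole number never above the peak width. The hotspot value is a −log10 q-value, deposited by the authors, with a limit of 100. The files listed 276892 and 188726 peaks, of which 276480 and 188498 on 21 chromosomes were used.

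Python 3.11.15 was used with GENCODE M21 models and RefSeq GRCm38.p6 sequence. Sites, distances and motifs were computed for all protein-coding genes, and the code was tested on simulated data with planted sites and motifs. No test was run, since the design has 1 group. All 10 genes are named with their promoter sites and strongest distal sites. In the paralogue and contraction lists the 3 genes with the highest mean rank and those without a shared site are named, and other names, markers included, are given as examples chosen after their values were seen. The members and lists were chosen with earlier results of these data known. The alternatives, of which a 2500 bp minimum for distal sites above the promoter was added after seeing the data, covered overlap, score, distances, TSS choice and each replicate alone.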

Additional observations from a re-analysis of the deposited data

How the results depend on the processing

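All 10 genes kept a shared promoter site under every alternative run except the stricter score limit (peaks above the median score of their list), where 8 did, and 7 had a shared intronic site throughout. The number of shared sites around them, 191 within 50 kb, was 85 within 10 kb, 330 within 100 kb and 121 under the stricter score limit, and ran from 213 to 310 with either replicate alone. The 113 distal sites became 57 within 10 kb, 207 within 100 kb, 55 by nearest TSS and 60 under the stricter score limit, and ran from 122 to 203 with either replicate alone. The 2 genes with a CArG box in a shared promoter site became 1 under the stricter score limit and 1 with an overlap of at least 75 bp, and ran from 1 to 3 with either replicate alone. The excess of the median replicate log2 ratio of the 10 genes over that of all open genes was 0.15 to 0.25. The alternatives differ in which peaks are used, how peaks are merged, how far the region reaches or which sites are assigned to a gene. No paired analysis was possible because the series has 1 group. Precision is limited by the 2 libraries, by unknown depth and by a score whose meaning is not given.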
